A study of Mus musculus with 6 samples.

Results

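miR-9, a microRNA of the nervous system, was followed through its 3 precursors mmu-mir-9-1, mmu-mir-9-2 and mmu-mir-9-3, which are 3 of the 855 precursor rows with deposited values and were chosen by name. Small RNAs had been sequenced from whole mouse retina with and without the miRNA-processing enzyme Dicer1 in rod photoreceptors. The 3 control libraries came from littermates with homozygous floxed Dicer1 alleles and no Cre (Dicerfl/fl, iCre75-). The 3 conditional knockout (cKO) libraries came from mice with the same floxed alleles and the iCre75 transgene, a Cre recombinase driven in rods by the rhodopsin promoter (Dicerfl/fl, iCre75+). All mice were 4 weeks old on a Mixed C57BL/6J - SJL background, and each library was a pool of 6 retinas taken in the morning. The transgene is known to act in rods, so that the cKO libraries mix targeted rods with all other retinal cells. In whole-retina libraries, fewer cells of a type and less RNA per cell cannot be told apart. Dicer1 mRNA was not analysed here, and the genotypes are taken from the labels alone.

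miRNAs are cut from a hairpin precursor by Dicer and then guide Argonaute proteins to messenger RNAs, mainly through the seed near their 5′ end. miR-9 is among the most conserved miRNAs of the vertebrate nervous system and is known from neural progenitors, where it acts on regulators such as Hes1, Rest and the orphan receptor Nr2e1. In the developing retina it is known, together with let-7 and miR-125, for advancing progenitors from early to late fates, and in the adult retina it is known from Müller glia. At 4 weeks the mouse retina no longer holds dividing progenitors. The deposited values are for whole retina and assign no read to a cell type.

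The mouse genome carries 3 separate genes for the same miR-9. Their hairpins, and the mature arms cut from them, are shown because the reading of the data rests on which bases the copies share. In the hairpins the capitals mark the 5p and 3p mature arms, and in the mature arms they mark the seed (bases 2 to 8). The sequences are those of RefSeq on the GRCm38.p6 build, in which all 3 members and both arms were found by name.
mir-9-1: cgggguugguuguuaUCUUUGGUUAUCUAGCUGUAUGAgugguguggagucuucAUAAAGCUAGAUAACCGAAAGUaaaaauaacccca
mir-9-2: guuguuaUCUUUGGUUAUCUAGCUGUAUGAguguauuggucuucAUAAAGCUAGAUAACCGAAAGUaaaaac
mir-9-3: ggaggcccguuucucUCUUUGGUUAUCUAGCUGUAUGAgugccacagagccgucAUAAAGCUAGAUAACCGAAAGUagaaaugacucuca
miR-9-5p: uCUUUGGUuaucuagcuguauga
miR-9-3p: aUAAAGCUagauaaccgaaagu

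The hairpin of mir-9-1 is 89 bases long and lies on chromosome 3 (88215598 to 88215686, plus strand), in an intron of the long noncoding RNA gene Gm3764. On the opposite strand of the same place GENCODE annotates a further miRNA gene, Gm25641. The hairpin of mir-9-2 has 72 bases on chromosome 13 (83738814 to 83738885, plus strand), inside an exon of the long noncoding RNA C130071C03Rik. The hairpin of mir-9-3 has 90 bases on chromosome 7 (79505264 to 79505353, plus strand), in an intron of its host noncoding RNA Mir9-3hg. These positions are on GRCm38, whereas the submitters' processing notes name mm9, and the deposited values carry no coordinates.

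The arms themselves do not tell the copies apart. Around the 5p arm, mir-9-1 and mir-9-2 are identical over a run of 33 bases, 7 before the arm and 3 after it. mir-9-3 departs from both at the base just before the 5p arm and shares 3 bases after it, a run of 26 bases. Around the 3p arm the shared runs are 33 bases for mir-9-1 with mir-9-2 and 25 bases for mir-9-3 with either. A read can therefore be told to come from mir-9-3, or not, only if it reaches past these short flanks. None of the 1679 mature names in the RefSeq table other than miR-9-5p holds the seed CUUUGGU, and none other than miR-9-3p holds UAAAGCU. No hairpin among 1002 others holds an 18-base stretch of either arm.

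The 3 rows turned out to hold essentially 1 set of reads. RPKM is reads per length of precursor and per library total, and multiplying each value by the hairpin length gave whole reads in every library. In control 1 to 3, mir-9-2 held 39928, 28805 and 28727 reads. In cKO 1 to 3 it held 53736, 51088 and 38823 reads. mir-9-1 held the same number in control 1 and cKO 1 and 1 to 3 reads fewer in the other libraries. mir-9-3 held 3 to 9 reads fewer than mir-9-2, which was 0.0074% to 0.024% of the reads of mir-9-2. These are net differences, and the mismatches allowed in placing reads are not given in the sources at hand. Reads that fit several copies were counted at each of them, so that the 3 rows are not separate measurements and no row shows how much each gene contributes.

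The order of the copies in RPKM follows their lengths. mir-9-2 stood 1.236 times above mir-9-1 and 1.250 times above mir-9-3 in all 6 libraries, and the ratios of the hairpin lengths are 1.236 and 1.250. The precursor rows also pool both arms, so miR-9-5p and miR-9-3p have no separate value. The values of mir-9-2 are used below for all 3 rows unless a row is named.

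**Figure D1:**
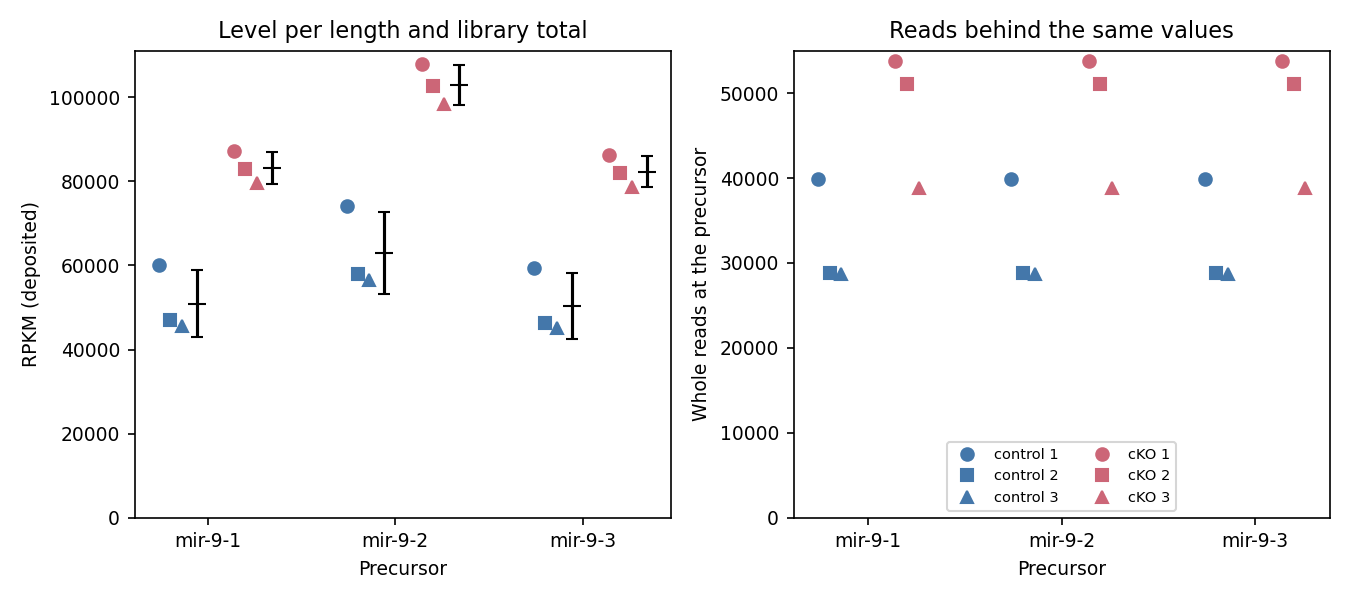
Deposited RPKM (left, with mean and SD beside the points) and the whole reads behind it (right) for the 3 miR-9 precursors, with 1 point per library, 3 control and 3 cKO. The precursors differ in RPKM, with mir-9-2 the highest, while the reads of each library are level across the copies; in RPKM every cKO library lies above every control library.

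The first comparison asked whether miR-9 makes up a different part of its library's total when rods lack Dicer1. That total is the one implied by the RPKM values, and which kinds of RNA it covers is not known here. miR-9 stood higher in cKO retina in every cKO library than in any control, as a part of its library's total. mir-9-2 had 74156, 58031 and 56503 RPKM in control 1 to 3, and 107763, 102621 and 98379 RPKM in cKO 1 to 3. The groups did not overlap, and control 1 lay above the other controls. The control mean was 62897 ± 9781 RPKM, and that of the cKO libraries 102921 ± 4699 RPKM (SD, n = 3 each). The spread between libraries was 15.6% of the mean among controls and 4.57% among cKO libraries, and the lowest cKO library was 1.33 times the highest control.

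On the log2(RPKM + 1) scale mir-9-2 rose by 0.72 (SE 0.13, 95% interval 0.43 to 1.01; limma across 461 precursors, Benjamini-Hochberg adjusted p = 0.0011), a 1.65-fold rise. mir-9-1 went from 50879.9 ± 7915 to 83261 ± 3803 RPKM and mir-9-3 from 50309 ± 7828 to 82324 ± 3765 RPKM (SD, n = 3 each). Both rose by 0.72 as well (limma adjusted p = 0.0012 each), which repeats the result of mir-9-2 because the reads are shared. All 3 rows passed, where 69.4% of all tested precursors rose and 1.74% fell. The groups were apart, with every cKO library above every control library, in 71.6% of the tested precursors. The call of miR-9 is therefore the call that most precursors gave. Leaving out any library kept the call, with values from 0.65 without control 3 to 0.84 without control 1 (limma adjusted p = 6.3e-04 to 0.0065 for mir-9-2).

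As a share of library reads mir-9-2 took 0.534%, 0.418% and 0.407% in control 1 to 3 and 0.776%, 0.739% and 0.708% in cKO 1 to 3. Counting error of reads was small beside these differences. In control 1, the highest control, the Wilson 95% interval was 0.529% to 0.539%, and in cKO 3, the lowest cKO library, it was 0.701% to 0.715%. The intervals cover counting error of reads only and leave out the spread between libraries. PCR copies of a molecule are counted as separate reads, so the counting error of molecules may be larger than these intervals. The mean share was 0.453% ± 0.0704 for controls against 0.741% ± 0.0338 for cKO libraries (SD, n = 3 each), a difference of 0.288 percentage points. An exact permutation test (two-sided) returned p = 0.1, below which 3 against 3 libraries cannot go.

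miR-9 was an abundant but not a leading miRNA of the retina. By mean RPKM over all 6 libraries mir-9-2 ranked 31 of 855, mir-9-1 34 and mir-9-3 35. Within single libraries mir-9-2 ranked 29 to 35 in control and 28 or 29 in cKO retina, so that its place in the order moved little. Just above it stood mir-181c, mir-191 and mir-124-1, and just below it mir-125a, let-7b and mir-124-2. In control retina mir-9-2 overlapped with each of these 6 neighbours. In cKO retina its libraries no longer overlapped with those of mir-181c (125634 ± 1533 RPKM), mir-191 (91626 ± 7093 RPKM), mir-124-1 (80488 ± 7155 RPKM) or mir-124-2 (62846 ± 5601 RPKM; SD, n = 3 each). mir-125a and let-7b, from the families that work with miR-9 in retinal progenitors, overlapped with mir-9-2 in both genotypes. In cKO retina the overlap with mir-125a was slight, its highest library at 98385 RPKM beside the lowest of mir-9-2 at 98379 RPKM. These overlaps rest on the 72-base hairpin of mir-9-2. For nearly the same reads mir-9-1 had 79585 to 87179 RPKM in cKO retina, which overlapped with mir-124-1 at 73324 to 87634 RPKM.

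The size of the miR-9 change was close to that of a typical precursor. The median log2 fold change of the 461 tested precursors was 0.74, with quartiles at 0.47 and 0.99, and 429 of them (93.1%) were higher in cKO retina. mir-9-2 at 0.72 exceeded 218 of 461 (47.3%). The rise of miR-9 as deposited accompanied a fall of mir-182, the main miRNA of photoreceptors, from 7295946 ± 311516 to 4024508 ± 429841 RPKM (SD, n = 3 each), which enters the total that every RPKM value is divided by. When libraries were scaled to the median ratio of their precursors, the median of all tested precursors shifted from 0.74 to 0.018. mir-9-2 then stood at -0.011 (95% interval -0.35 to 0.32; limma adjusted p = 0.97). With mir-182 reads taken out of the totals it stood at 0.096 (interval -0.24 to 0.43; limma adjusted p = 0.70), beside a median of 0.12. With the 10 most abundant precursors taken out it stood at 0.21 (limma adjusted p = 0.32), beside a median of 0.23. Under these 3 scalings mir-9-2 lay 0.025 to 0.029 below the median of all tested precursors, and as deposited it lay 0.020 below it. Each of the 3 divides a whole library by a single factor, which shifts all precursors nearly alike. The distance from the median could therefore hardly change, and its likeness across them is no separate support.

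Quantile normalization, which replaces each value by that of its rank, parted the copies although they share their reads. It gave 0.31 for mir-9-1, 0.37 for mir-9-2 and 0.35 for mir-9-3 (limma adjusted p = 0.31, 0.14 and 0.26), beside a median of 0.042 over all tested precursors. These values do not measure a difference between the 3 genes. RPKM is relative to each library's own total, and none of these scalings gives miR-9 per retina or per cell.

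**Figure D2:**
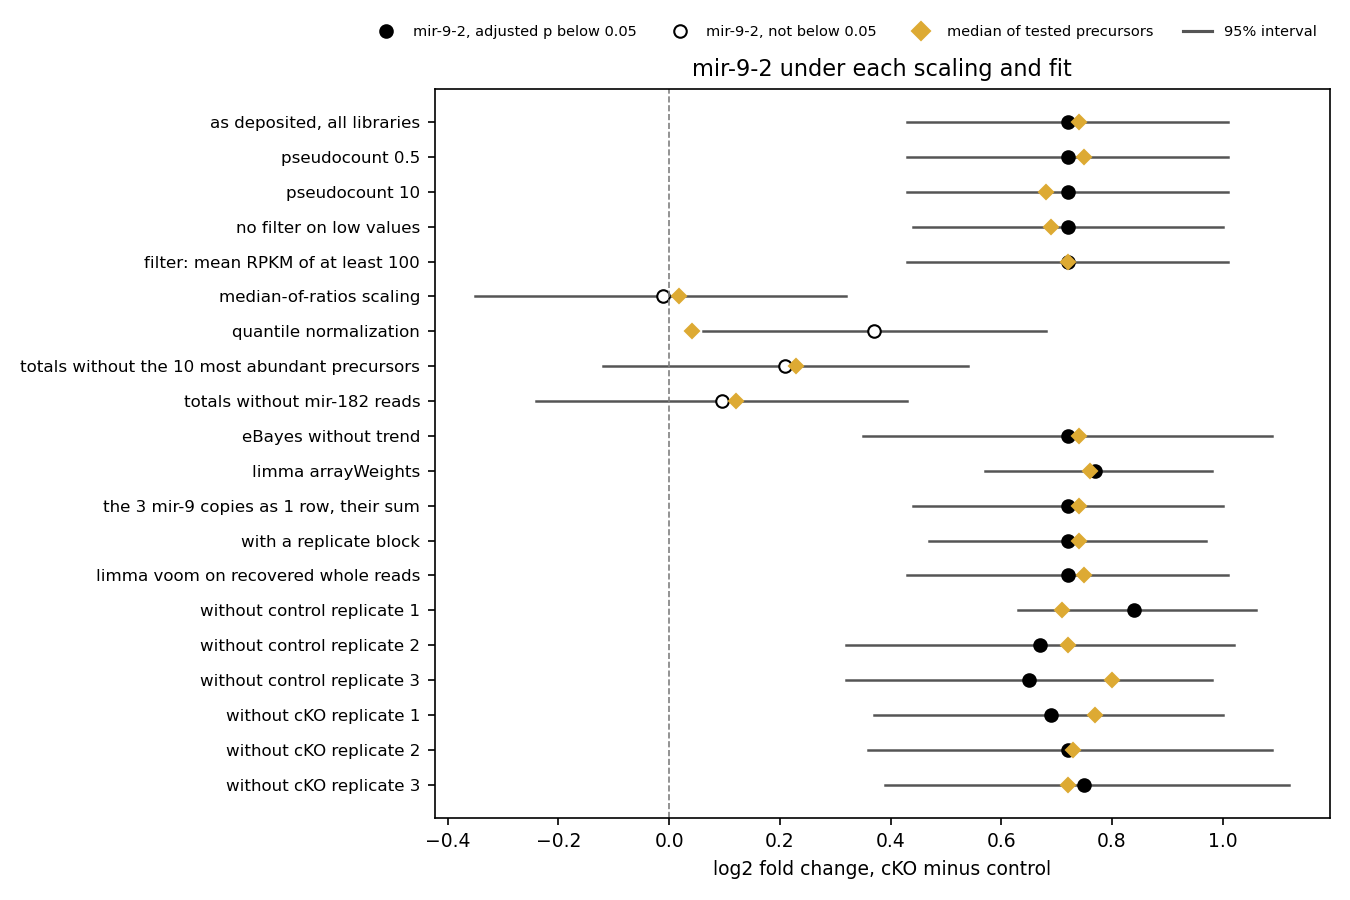
log2 fold change of mir-9-2 (circles, filled where the limma adjusted p was below 0.05, with its 95% interval) and the median of all tested precursors (diamonds) under each scaling and fit. With values as deposited mir-9-2 lies between 0.65 and 0.84, with 4 other scalings between -0.011 and 0.37; except under quantile normalization and without control 1 or 3 the diamond lies within 0.1 of the circle.

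A ratio of precursors of 1 library does not depend on the library total. mir-9-2 was therefore set against 6 abundant precursors of known settings. For each, the log2 ratios of cKO and control libraries were compared by an exact two-sided permutation test. Its smallest possible p is 0.1 (0.2 or higher after adjustment over the 6 tests). A ratio also carries the partner's own change, as deposited -0.86 for mir-182, -0.071 for mir-124-3 and 0.47 for let-7c-2. mir-9-2 at 0.72 lay near the median of 0.74 over all 461 precursors. A precursor with the median change would therefore show differences of about the same size as those of mir-9-2 below.

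Relative to mir-182 of photoreceptors, miR-9 rose furthest. mir-9-2 stood at 0.969%, 0.812% and 0.797% of the mir-182 level per length in control 1 to 3. In cKO 1 to 3 it stood at 2.39%, 2.66% and 2.66%. All cKO libraries were well above all controls, and the log2 ratio went from -6.87 ± 0.16 to -5.28 ± 0.089 (SD, n = 3 each), a 3.00-fold change (exact permutation p = 0.1, adjusted 0.2). Leaving out any library moved the log2 difference of 1.58 only between 1.53 and 1.67.

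Relative to mir-124-3, a precursor of the neuronal miR-124, mir-9-2 stood at 0.883, 0.483 and 0.487 in control 1 to 3 and at 0.984, 1.02 and 1.07 in cKO 1 to 3. mir-9-2 and mir-124-3 were thus nearly level in cKO retina, while mir-9-2 had the lower value in each control. This holds for the rows of mir-9-2 and mir-124-3 alone. In control 1 and in every cKO library mir-9-2 lay above the rows of mir-124-1 and mir-124-2, and mir-9-1 lay below mir-124-3 in every library. The groups did not overlap, but control 1 lay nearer to the cKO libraries than to the other controls. The log2 difference was 0.79 (exact permutation p = 0.1, adjusted 0.2), and it was 1.08 without control 1 and 0.64 without control 2. Control 1 also held the lowest mir-124-3 value of all 6 libraries, at 83955 RPKM, beside the highest miR-9 value among controls. The part of that library in the result beyond these values was not tested.

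Relative to precursors of the inner retina and of glia, miR-9 showed no separation of the genotypes. Against mir-181a-2, abundant in inner retinal neurons, the log2 ratio was -5.46 ± 0.21 for controls against -5.45 ± 0.12 for cKO libraries (SD, n = 3 each; exact permutation p = 1.0). Against mir-125b-2, which accompanies miR-9 in progenitors and Müller glia, it was 1.22 ± 0.47 and 1.22 ± 0.22 (exact permutation p = 1.0). The small differences of 0.0084 and 0.0019 changed sign when single libraries were left out, with ranges of -0.069 to 0.13 and -0.16 to 0.27. With 3 libraries a group and SDs of this size, equal ratios are not shown. Against mir-204, known from Müller glia and the retinal pigment epithelium, it was -2.79 ± 0.31 and -3.03 ± 0.23, a difference of -0.24 (exact permutation p = 0.4, adjusted 0.6) with overlapping groups. That difference was -0.065 without control 1, -0.14 without cKO 3 and -0.36 without control 3 or without cKO 1.

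Against let-7c-2, of the let-7 family that restrains progenitor fates, mir-9-2 stood at 0.560, 0.546 and 0.482 in control and at 0.747, 0.569 and 0.582 in cKO 1 to 3. The groups were apart by a narrow margin, and cKO 1 lay above the rest. The log2 difference was 0.25 (exact permutation p = 0.1, adjusted 0.2), and 0.12 without cKO 1.

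**Figure D3:**
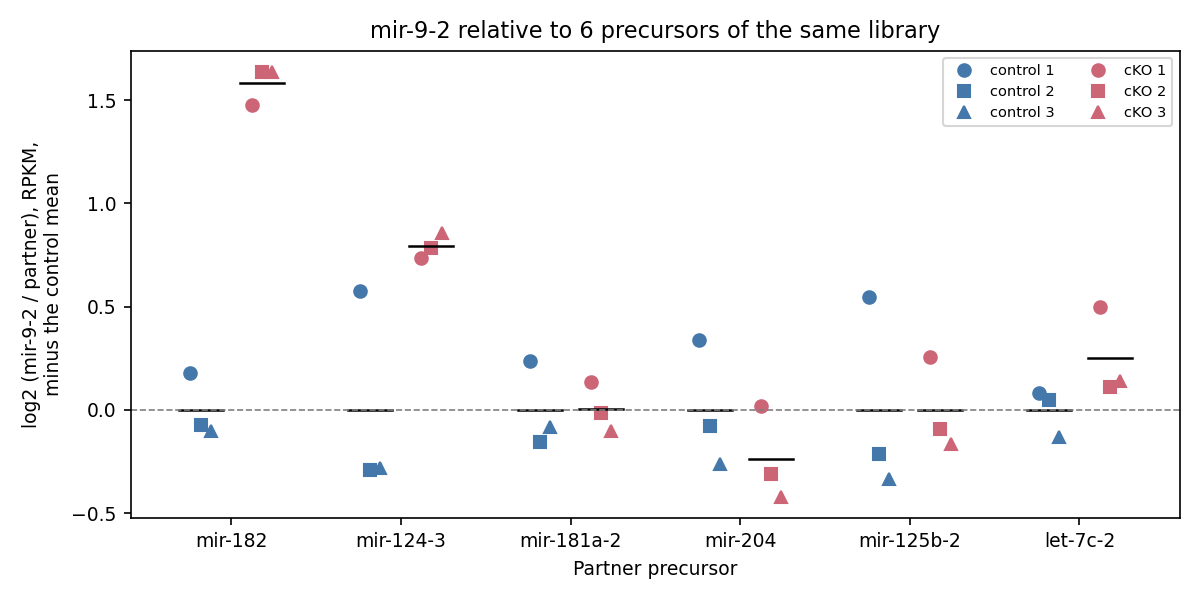
log2 ratio of mir-9-2 to 6 other precursors of the same library, less the control mean of that ratio; points are libraries (3 control, 3 cKO) and bars are group means. The cKO libraries lie above the controls for mir-182, by 1.58 on average, for mir-124-3 by 0.79 and narrowly for let-7c-2 by 0.25, while for mir-181a-2, mir-204 and mir-125b-2 the groups overlap.

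The families known to act with miR-9 in retinal progenitors rose as deposited, mostly by less than miR-9. Of 14 progenitor partners, 11 let-7 and 3 miR-125 precursors, 14 rose and none fell, and their median log2 fold change was 0.47 beside 0.74 over all 461 precursors, of which 69.4% rose. None of the 14 exceeded mir-9-2. let-7f-2, the most abundant, went from 154341 ± 15848 to 204250.1 ± 21449.7 RPKM (SD, n = 3 each), a 1.32-fold rise (limma adjusted p = 0.015), and let-7a-1 and let-7a-2 rose 1.35-fold each. mir-125a and mir-125b-2 came nearest to miR-9, at 1.61- and 1.65-fold (limma adjusted p = 0.0033 and 0.0025). The number that rose was 8 without control 2, 8 without cKO 2, 11 without cKO 3 and 13 without control 3, and it was 0 with median-of-ratios scaling, where the median was -0.26. Many let-7 rows share reads, as the miR-9 rows do.

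Precursors reported in Müller glia or astrocytes rose in 9 of 9 rows, with a median of 0.84 and 5 of 9 above mir-9-2, beside the 69.4% that rose and the median of 0.74 over all 461 precursors. The list holds mir-181a and mir-204, which other retinal and pigment epithelial cells also express, and it shares mir-125b-1 and mir-125b-2 with the progenitor list. It also counts both copies of mir-181a, mir-125b and mir-135a, which changed almost alike. mir-99a and mir-100 changed almost alike as well, both by 1.06 on the log2 scale, and whether they share reads was not tested. The 9 rows of the list are therefore not separate members. mir-181a-2, its most abundant row, went from 2744137 ± 109075 to 4495813 ± 181821 RPKM (SD, n = 3 each), a 1.64-fold rise beside the 1.65-fold rise of miR-9. mir-204 rose 1.94-fold (limma adjusted p = 2.6e-04), and mir-99a and mir-100 rose 2.09- and 2.08-fold. All 9 rose without any library in turn, and 0 of 9 rose with median-of-ratios scaling, where the median was 0.11.

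Other cell types' miRNAs were read beside miR-9 from lists of known markers, and their counts stand beside the 69.4% of all 461 precursors that rose and the 1.74% that fell. All 3 photoreceptor miRNAs were present, and mir-182 and mir-96 fell while mir-183 did not pass at -0.11. The value of mir-183 ran from -0.43 to 0.077 without 1 library. Without control 1, where mir-183 was lowest at 230841 RPKM, all 3 fell. The call of mir-96 was lost without control 2, control 3, cKO 2 or cKO 3 (limma adjusted p up to 0.18). The neuronal list held 4 that rose of 7 rows. Its rows are copies of miR-124, miR-138 and miR-128, and copies of the same miRNA changed almost alike, so they are not separate members. Those that rose were mir-138-1, mir-138-2, mir-128-1 and mir-128-2, while the mir-124 copies stood at -0.071 to -0.070 as deposited and did not pass. With median-of-ratios scaling the mir-124 copies fell by 0.80 (limma adjusted p = 0.0047 for mir-124-3). Of 4 miRNAs linked to injury and gliosis only mir-34a rose (1.58-fold; limma adjusted p = 0.0048), while mir-21a went from 7241 ± 43.0 to 6560.1 ± 217 RPKM (SD, n = 3 each) and did not pass. Without control 3, where mir-146a was highest among controls at 373 RPKM, 2 of the 4 rose. Their summed level ran from 7525 to 7753 RPKM among controls and from 6944 to 7347 RPKM among cKO libraries.

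Markers of cells from outside the neural retina were present in every library, and their counts too stand beside the 69.4% of all precursors that rose. Red cell miRNAs summed to 16553 to 19359 RPKM among controls and 26667 to 31079.6 RPKM among cKO libraries, and 2 of 3 rose, a share near that of all precursors. Nearly all of the sum was mir-486. In control and cKO retina mir-451a had means of only 179 and 381 RPKM, and mir-144 of 33.5 and 59.3 RPKM. The endothelial mir-126 rose from 7108 ± 1740.3 to 17991 ± 806 RPKM (SD, n = 3 each), 2.58-fold. Oligodendrocyte miRNAs, of cells that the mouse retina lacks, summed to 1143 to 1457 and 2048 to 2128 RPKM, nearly all of it mir-338, and the more specific mir-219-1 and mir-219-2 had means below 100 RPKM. Muscle miRNAs summed to 926 to 1618 and 1558 to 2444 RPKM, and 2 of 4 rose, but 0 without control 2, cKO 2 or cKO 3. Those that rose were mir-133a-1 and mir-133a-2, and the others were mir-1a-1 and mir-1a-2. Copies of the same miRNA changed almost alike here too, so these rows are not separate members. Lens, cornea and epithelial miRNAs varied most between libraries, from 2499 to 54376 RPKM among controls and from 25397 to 63458 RPKM among cKO libraries. None of the 3 passed, although 2 rose without control 3 and 3 without cKO 1. With median-of-ratios scaling the lists of this and the preceding paragraph held 3 that rose (mir-126, mir-138-1 and mir-138-2) and 7 that fell (the photoreceptor miRNAs, the mir-124 copies and mir-21a), beside 10 that rose and 46 that fell of all 461 precursors. No marker on these lists was at 0 in any library. In control 3 the lens and cornea sum of 54376 RPKM lay just under mir-9-2 (56503 RPKM) and above mir-9-1 and mir-9-3 (45706 and 45192 RPKM). The part of these cells in the miR-9 values was not tested.

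**Figure D4:**
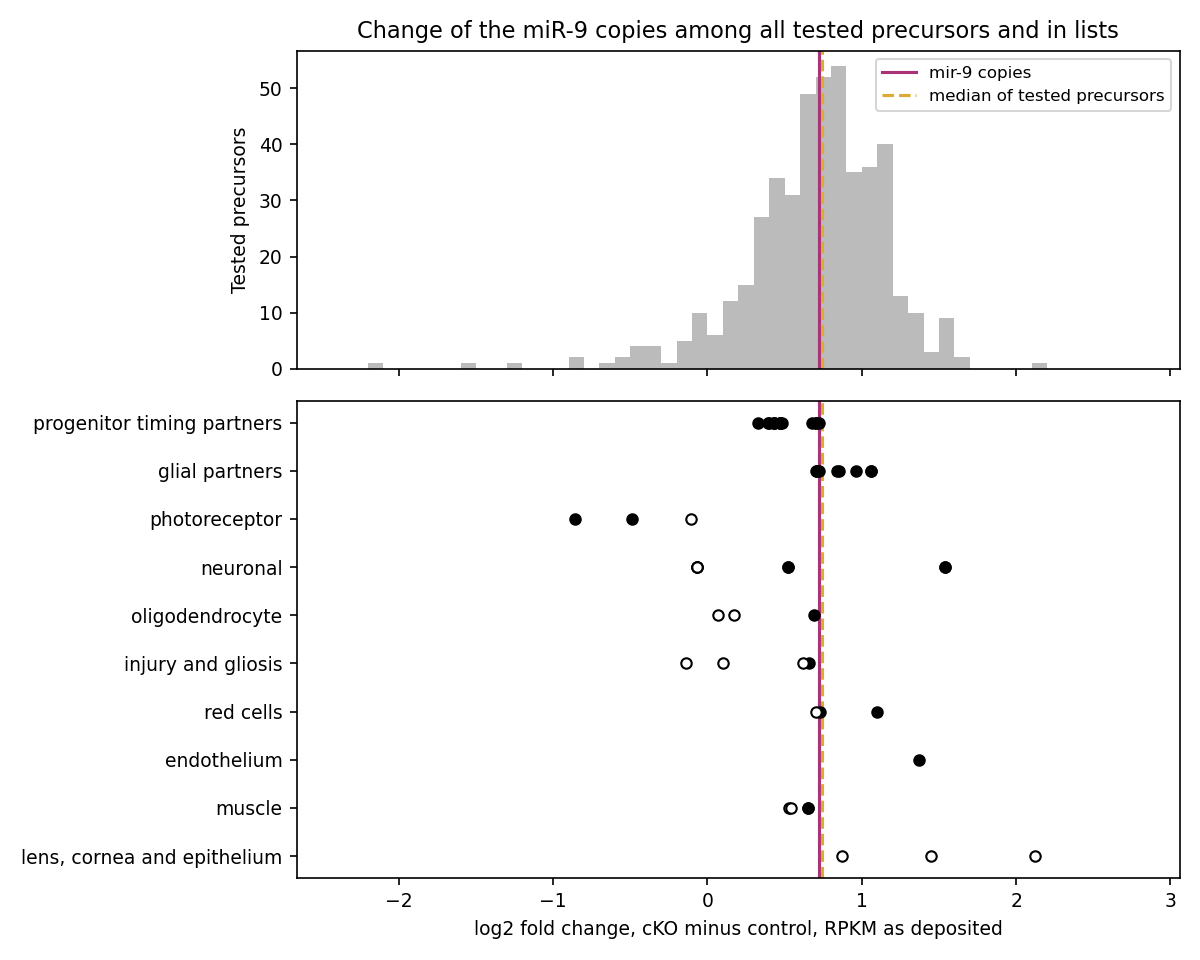
Top, number of tested precursors by log2 fold change (cKO minus control, RPKM as deposited) with the miR-9 copies at 0.72 and the median of all 461 precursors at 0.74; bottom, the members of each marker list, filled where the limma adjusted p was below 0.05. The progenitor partners lie at or to the left of miR-9, 5 of 9 glial partners to its right, and the photoreceptor miRNAs below 0.

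The profile most like that of miR-9 over the 6 libraries was that of mir-181c. Likeness was measured as the root mean square distance of log2(RPKM + 1) values, each centred on its own mean, to mir-9-2, among 159 precursors of at least 1000 RPKM. The distance was 0.052 for mir-181c, 0.057 for mir-25, 0.064 for mir-15b, 0.088 for mir-5099 and 0.091 for mir-34b, where the median precursor had 0.267. mir-181c went from 74182 ± 10794 to 125634 ± 1533 RPKM (SD, n = 3 each), which was 0.77 on the log2 scale. mir-25 of the mir-106b cluster and mir-15b rose by 0.67 and 0.70 (limma adjusted p = 0.0029 and 0.0017). The other end was held by the lens and cornea miRNA mir-184, at 1.590. All profiles share the library totals, whose part in the likeness was not tested, and the distances describe these 6 libraries.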

How the data were processed

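Total RNA from pools of 6 retinas was made into small RNA libraries with 11 rounds of PCR, size-selected on gels and sequenced in 1 shared run, per the labels' protocols. The authors deposited RPKM values, that is, reads scaled by precursor length and library total. Per the submitters' processing notes Bowtie and mm9 were used. Filters, annotation and multi-mapping settings were not given in the sources used here. Replicate numbers and groups came from the labels' descriptions. The series calls the libraries biological replicates without saying which animals entered a pool, so p values measure only the spread between these samples, which may be technical in part.

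RPKM times hairpin length was a whole number of reads, to within 0.01, in 3702 values (100.0% of those of precursors with an annotated length that were above 0 in some library). Any value of 0 among them is whole in any case. Each library's total was set so that its smallest product above 0, among precursors with RefSeq lengths, equals a single read. This gave library totals of 5480940 to 7478237, so that a single read at mir-9-2 equals 1.86 to 2.53 RPKM. The reads of all precursors added up to 1.55 to 1.86 times the totals. Lengths came from RefSeq or GENCODE names for 816 of 855 rows and were inferred for 29, a rule that returned the annotated length for 434 of 436.

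The main test was limma 3.58.1 (R 4.3.3, trended eBayes, two-sided) on log2(RPKM + 1). It covered 461 precursors averaging 10 RPKM or more, adjusted over all of them, threshold 0.05. The fit was tested on simulated data. Fold changes on this scale understate changes of low precursors. Ratios and the share used exact permutation. Wilson intervals came from scipy 1.17.1, figures from matplotlib 3.10.9. Named precursors were the members, 6 ratio partners, the 3 neighbours in level on each side, the 5 nearest profiles, and up to 4 abundant examples of each list. mir-99a, mir-100, mir-138-1, mir-128-1 and mir-128-2 were named after their values were seen. The members and lists were chosen with earlier results of these data known. Alternatives covered pseudocount, filter, scaling, variance model, library weights, summed copies, a replicate block, voom on recovered reads and each library left out. List counts under other settings were added after seeing the data.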

Additional observations from a re-analysis of the deposited data

How the results depend on the processing

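The log2 fold change of the 3 miR-9 rows kept its sign and its side of the threshold with pseudocounts of 0.5 or 10, no filter or a minimum of 100 RPKM, eBayes without trend, library weights, the copies summed, voom and each library left out (0.65 to 0.84 for each row). It did not under 4 scalings. With median-of-ratios scaling mir-9-1, mir-9-2 and mir-9-3 turned to -0.011. With quantile normalization they were 0.31, 0.37 and 0.35, with totals without the 10 most abundant precursors 0.21 each, and with totals without mir-182 reads 0.096 each, none past the threshold; the cause was not tested. The precursors that rose numbered 320 and those that fell 8 as deposited; these became 10 and 46 (median-of-ratios), 12 and 29 (quantile), 57 and 29 (without the 10 most abundant) and 20 and 36 (without mir-182 reads). Those that fell were 4 at a minimum of 100 RPKM and 14 with library weights; over fits without 1 library 252 to 322 rose and 4 to 12 fell. The cKO minus control difference in the log2 ratio to mir-181a-2 ran from -0.069 to 0.13 and that to mir-125b-2 from -0.16 to 0.27 without 1 library. The difference in share kept its sign (0.265 to 0.329 points without 1 library). With mir-182 reads out of the total, mir-9-2 took 1.01% ± 0.214 and 1.06% ± 0.0985 (SD, n = 3 each). Same-numbered libraries correlated at 0.19, 0.26 and 0.01 in their deviations, and 4 of 6 libraries correlated best with their own number. These values do not decide whether same-numbered libraries are pairs, and the main fit did not treat them as pairs. With a replicate block mir-9-2 stood at 0.72 (limma adjusted p = 6.5e-04), 338 precursors rose and 10 fell. The block also moved the counts of 3 lists. Of the 4 injury miRNAs 2 in place of 1 rose. Of the 3 lens, cornea and epithelial miRNAs 2 in place of 0 rose, and of the 3 photoreceptor miRNAs 1 in place of 2 fell. Depth did not limit miR-9, whose lowest library held 28720 reads at a row. With 3 libraries a group, the exact permutation test of a ratio or share cannot go below p = 0.1.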
